A study of Mus musculus with 33 samples.

Results

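The morphine response of the nucleus accumbens was compared between mice that drank antibiotics and mice that drank water. For each gene the value is the difference between 2 changes: morphine minus saline in antibiotic-treated mice, minus morphine minus saline in water-drinking mice. It uses 22 of the 33 libraries of the series, and 14559 of 24053 genes passed the filter on low counts and were tested. A positive difference means a higher response in antibiotic-treated mice, and can come from a rise in them, a fall in water-drinking mice, or both.

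The groups are Abx_Morphine (5 libraries), Abx_Saline (6), H2O_Morphine (5) and H2O_Saline (6); values of single libraries are given in the order of the labels' replicate numbers, which run from 2 to 6 in H2O_Morphine. All mice were C57BL/6J, 7 to 9 weeks old and kept 4 to 5 to a cage, and cages were assigned to a drink at random. Abx mice drank vancomycin (0.5 mg/mL), bacitracin (0.5 mg/mL), neomycin (2 mg/mL) and the antifungal pimaricin (1.2 µg/mL) for 2 weeks before the injections and throughout them. H2O mice drank water. Morphine mice received 20 mg/kg per day for 7 days, and saline mice received saline. The labels used here give no sex, cage or sequencing batch, so p-values measure the spread between these libraries, and cage and drink cannot be told apart.

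The nucleus accumbens is the ventral part of the striatum, and its principal cells are GABAergic medium spiny neurons that carry dopamine and opioid receptors. Morphine acts at the mu opioid receptor, and repeated dosing alters transcription in neurons and glia of this region. Opioids also engage the adrenal stress axis, whose hormone corticosterone enters the brain and drives a set of genes through the glucocorticoid receptor. Gut bacteria release metabolites and immune signals that can reach the brain, and the drink depletes these bacteria.

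Between 9.36 and 15.3 M reads per library were counted to genes. Penk, the enkephalin precursor of medium spiny neurons, averaged 1198 ± 103 CPM in Abx_Morphine, 1213 ± 298 in Abx_Saline, 1209 ± 211 in H2O_Morphine and 1443 ± 145 in H2O_Saline libraries (SD; CPM is counts per M reads at the TMM library size). Libraries differed in how much cortical-type RNA they held. Slc17a7, the vesicular glutamate transporter of cortical-type neurons, ranged over 133 to 851 CPM (median 563) in Abx_Morphine, 73.8 to 1238 (279) in Abx_Saline, 3.48 to 986 (69.5) in H2O_Morphine and 8.46 to 594 (249) in H2O_Saline libraries. The 3 libraries with most of it were Abx_Saline replicate 5, H2O_Morphine replicate 4 and Abx_Morphine replicate 1. On the first principal component, which held 25.5% of the variance, all 5 Abx_Morphine libraries had positive scores (7.86 to 31.3), whereas 4 of 5 H2O_Morphine libraries had negative ones (-21.3 to -11.6) and replicate 4 had 21.9.

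The difference between responses passed the threshold (adjusted p under 0.05, edgeR quasi-likelihood test, Benjamini-Hochberg over all genes) in 59 genes, 0.405% of those tested. It was positive in 26 genes (0.179%) and negative in 33 (0.227%). An unadjusted p under 0.05 was reached by 1817 genes, 12.5% of those tested. The median absolute difference of the 59 genes was 0.50 on the log2 scale, and 9 of them differed by more than 2-fold. All 59 kept their sign in every alternative fit that was run. These fits reuse most of the same libraries, and 3 of the 59 genes passed in every one. The number of passing genes was less steady, and ranged from 28 to 88 when each library was left out in turn. It was 20 without the 3 libraries highest in Slc17a7 (14 of them among the 59). It was 185 with DESeq2 and 6 with the replicate numbers as a block.

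Each response on its own passed in more genes. Morphine changed 1911 genes in Abx mice (13.1%), of which 940 rose and 971 fell. It changed 972 genes in H2O mice (6.68%), of which 575 rose and 397 fell. Between drinks, 2650 genes differed under morphine (18.2%; 8.49% higher and 9.71% lower in Abx) and 210 under saline (1.44%). These comparisons share libraries with each other and with the difference between responses, so their values show which groups a difference rests on and are not separate evidence for it.

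For most of the 59 genes the group that stood apart was Abx_Morphine. Of the 26 genes with a positive difference, 20 rose with morphine in Abx mice (6.46% of all genes did), 9 fell in H2O mice (2.73%), and in all 26 the 2 responses had opposite signs. Both responses passed in 3 of these, Dbndd2, Klc3 and Cldn11. Of the 33 genes with a negative difference, 29 fell in Abx mice (6.67% of all genes), 8 rose in H2O mice (3.95%), and the responses had opposite signs in 28. Both passed in 4 of these, Igdcc4, Sulf1, 4930402H24Rik and Dnmt1. Selecting genes by a large difference favours opposite signs, and in most of the 59 only 1 of the 2 responses passed. Every Abx_Morphine library lay above every H2O_Morphine library in 24 of the 26 (6.26% of all genes), and below every one of them in all 33 (6.81%). Within Abx mice, morphine libraries lay above every saline library in 13 of the 26 (3.14%) and below every one in 23 of the 33 (3.17%). Within H2O mice they lay below every saline library in 7 of the 26 (2.73%) and above every one in 8 of the 33 (3.1%). Under saline 1 of the 59 genes differed between the drinks: Cldn11, which was lower in Abx (0.879% of all genes were).

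**Figure D1:**
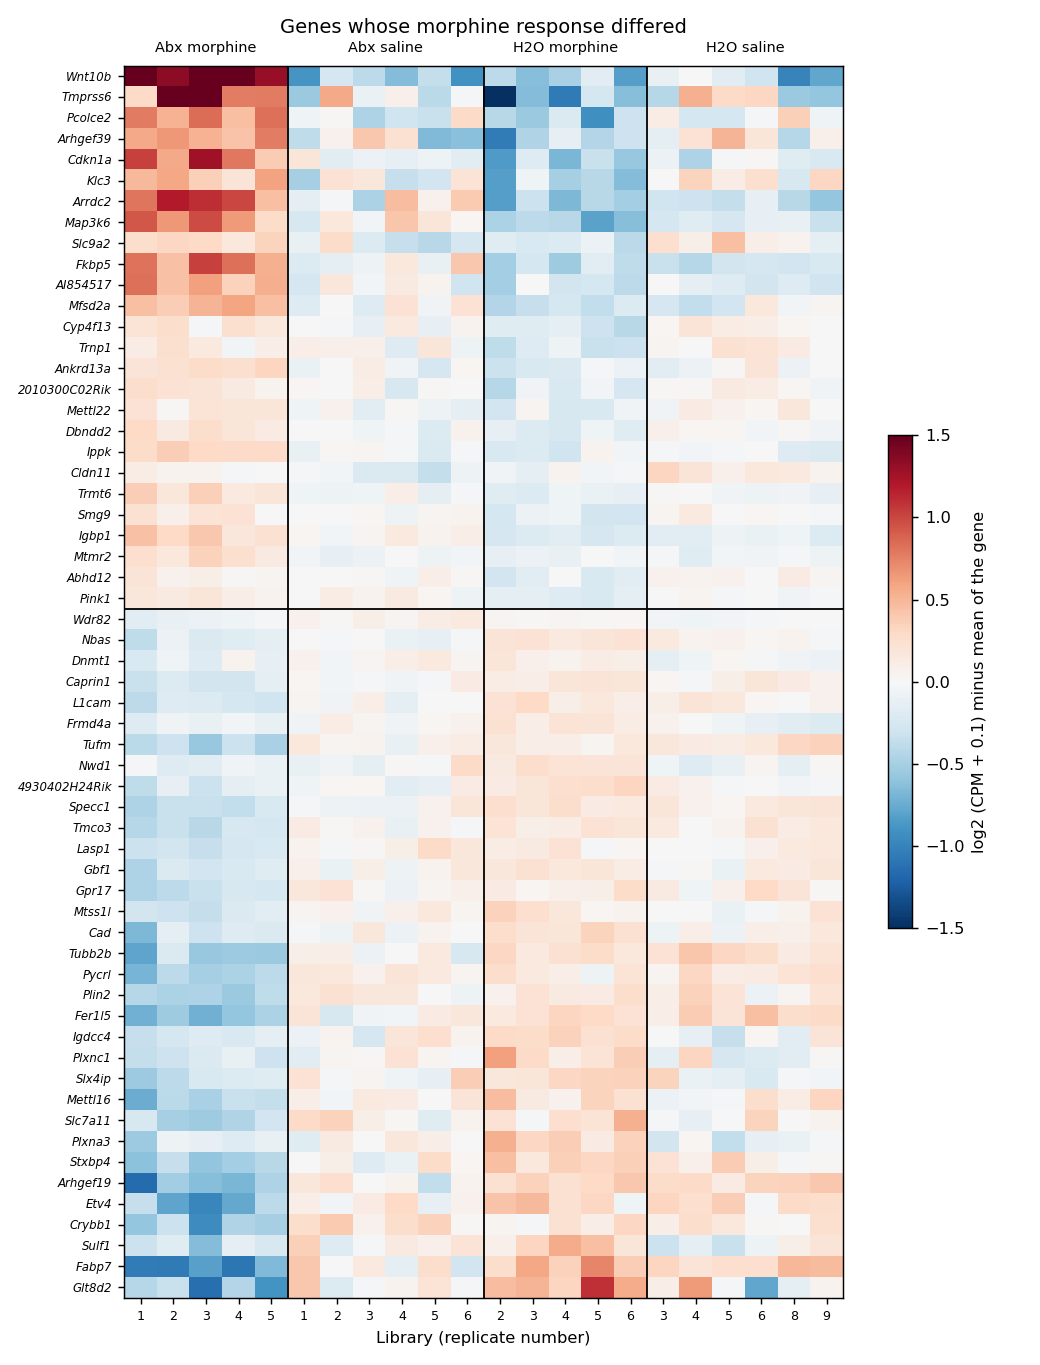
Level of the 59 genes whose morphine response differed between Abx and H2O mice (rows; the line divides the 26 with a positive from the 33 with a negative difference) in the 22 libraries (columns, by group). Colour is the log2 of CPM plus 0.1 minus the mean of that gene, and the 5 Abx_Morphine columns stand apart from the others in most rows.

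**Figure D2:**
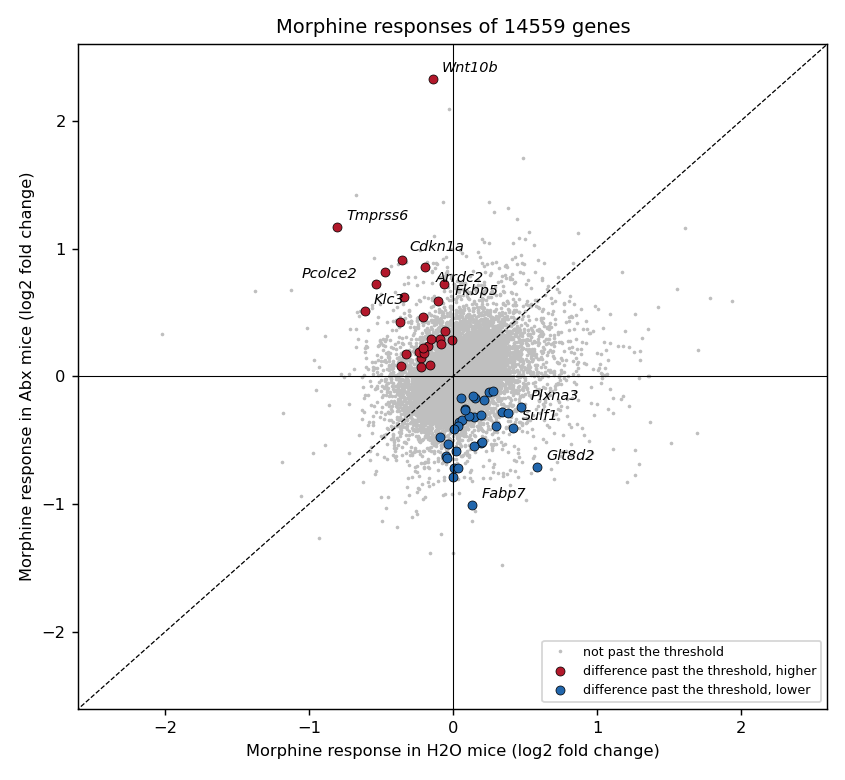
Morphine response (log2 fold change, morphine minus saline) in Abx mice (vertical axis) against that in H2O mice (horizontal axis) for 14559 genes. Coloured points are the 26 genes with a positive and the 33 with a negative difference, the dashed line marks equal responses, and Wnt10b lies at 2.33 in Abx and -0.14 in H2O mice.

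The secreted and extracellular proteins included Wnt10b, whose difference was the largest of the 59. Wnt10b, a secreted Wnt ligand, was at 6.69, 4.42, 6.74, 6.14 and 4.33 CPM in Abx_Morphine and at 0.850 to 1.40 CPM (median 1.15) in Abx_Saline libraries. It was at 1.26, 1.05, 1.17, 1.51 and 0.911 CPM in H2O_Morphine and at 0.794 to 1.68 CPM (median 1.42) in H2O_Saline libraries. The Abx_Morphine libraries lay above all 17 others, which overlapped each other. Wnt10b rose in Abx mice (log2 fold change with standard error 2.33 ± 0.19, adjusted p = 3.00e-07), its response in H2O mice was -0.14 ± 0.22 (adjusted p = 0.763), and the difference was 2.47 ± 0.30 (adjusted p = 0.000354). The Abx_Morphine levels rested on 57 to 85 reads a library. In the libraries of other groups richest in Slc17a7, Abx_Saline replicate 5 and H2O_Morphine replicate 4, Wnt10b was at 1.30 and 1.17 CPM.

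The bases before the annotated start of Wnt10b are shown because this gene had the largest difference. They are from RefSeq (GRCm38.p6, chr15:98778151-98778400, minus strand, 250 bases), and the capitals mark a match to TGACG or CGTCA, the half-site of the cAMP response element that CREB binds.
Wnt10b: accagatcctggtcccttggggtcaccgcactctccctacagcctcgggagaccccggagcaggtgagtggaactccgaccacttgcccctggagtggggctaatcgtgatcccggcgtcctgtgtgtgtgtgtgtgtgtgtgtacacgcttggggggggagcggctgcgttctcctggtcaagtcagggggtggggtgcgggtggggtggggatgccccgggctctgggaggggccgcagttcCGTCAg
The match begins 6 bases before the start. On either strand, in windows from 250 bases before to 50 after a start, these letters were in 14 of the 46 called genes with a RefSeq window (30.4%) and in 23.0% of all 27025 genes with one. A match describes the letters of a window only.

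Pcolce2, an enhancer of procollagen processing, was at 7.33, 6.12, 7.69, 5.83 and 7.58 CPM in Abx_Morphine and at 3.05 to 5.18 CPM (median 3.74) in Abx_Saline libraries. It was at 3.16, 2.84, 3.65, 2.19 and 3.40 CPM in H2O_Morphine and at 3.51 to 5.47 CPM (median 4.11) in H2O_Saline libraries. The Abx_Morphine libraries were above all others. It rose in Abx mice (0.81 ± 0.15, adjusted p = 0.00121), its response in H2O mice was -0.47 ± 0.16 (adjusted p = 0.0714), and the difference was 1.29 ± 0.21 (adjusted p = 0.0112). Tmprss6, a serine protease known in the liver as a regulator of iron, had a difference of 1.97 ± 0.44 (adjusted p = 0.0428). It was low throughout, at 1.81 to 4.96 CPM in Abx_Morphine, 0.965 to 2.22 in Abx_Saline, 0.421 to 1.21 in H2O_Morphine and 0.946 to 2.18 in H2O_Saline libraries. The Abx groups overlapped, and the difference passed in 7 of the 22 fits that left out a library.

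Sulf1 and Glt8d2 had negative differences. Sulf1, an extracellular enzyme that removes sulphate from heparan sulphate, averaged 33.5 ± 4.43 CPM in Abx_Morphine, 44.2 ± 5.77 in Abx_Saline, 51.7 ± 6.96 in H2O_Morphine and 38.7 ± 5.71 in H2O_Saline libraries (SD). It fell in Abx mice (-0.40 ± 0.11, adjusted p = 0.0225) and rose in H2O mice (0.42 ± 0.11, adjusted p = 0.0259), a difference of -0.82 ± 0.16 (adjusted p = 0.0215). Without the 3 libraries highest in Slc17a7 the difference of Sulf1 was -0.75 (adjusted p = 0.0559). Glt8d2, a putative glycosyltransferase, averaged 4.13 ± 0.951 CPM in Abx_Morphine, 6.77 ± 1.03 in Abx_Saline, 9.83 ± 2.24 in H2O_Morphine and 6.52 ± 2.04 in H2O_Saline libraries (SD), a difference of -1.30 ± 0.27 (adjusted p = 0.0327). Its exons share 367 bases with those of Tdg on the opposite strand, and with no strand setting stated the reads of both cannot be told apart. In all, 10 of the 59 genes overlap exons of the opposite strand, 6 of them those of a protein-coding gene. The others of these 6 are Gpr17 (with Lims2), Klc3 (Ercc2), Fer1l5 (Lman2l), Ippk (Cenpp) and Slx4ip (Mkks). Cdkn1a shares 273 bases with AC167363.2 on the opposite strand, and Dbndd2 shares 910 bases with Gm20458 on its own strand.

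**Figure D3:**
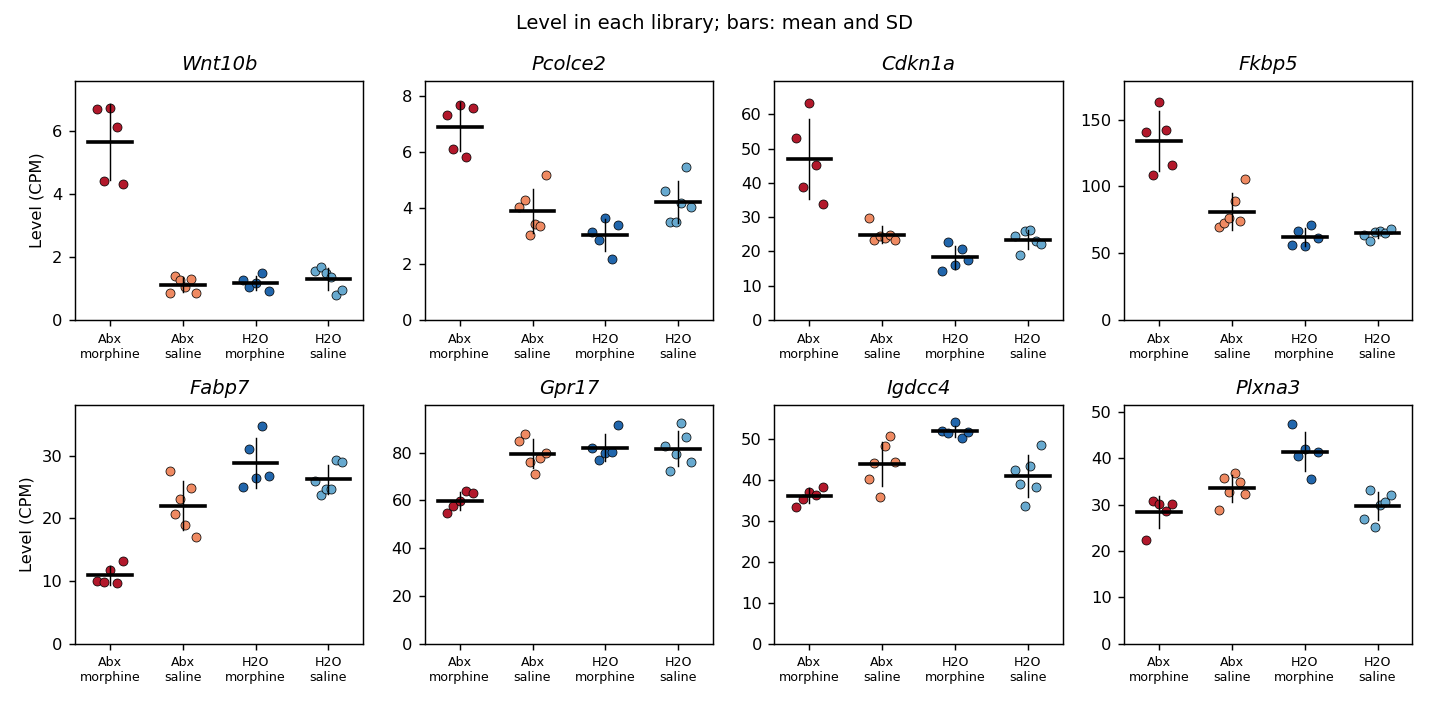
CPM of 8 genes in every library, with the mean (horizontal bar) and SD (vertical bar) of each group, from Abx_Morphine on the left to H2O_Saline on the right. Wnt10b, Pcolce2, Cdkn1a and Fkbp5 were highest and Fabp7 and Gpr17 lowest in Abx_Morphine libraries, while the means of Igdcc4 and Plxna3 were highest in H2O_Morphine libraries.

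Among glucocorticoid-response genes, 4 of the 24 tested had a positive difference (Cdkn1a, Fkbp5, Arrdc2 and Map3k6) and 0 a negative one, against 0.179% and 0.227% of all genes. The list was chosen with earlier results of these data known, so these shares describe it and are not a test. The median difference of the list was 0.22, with 22 of 24 values positive. Over all genes the median was -0.01 and 48.7% of values were positive. Signs were uneven in other lists too, with 69 of 80 ribosomal and 16 of 19 circadian values positive and 0 of 11 septal ones. In Abx mice 10 of the 24 rose with morphine and 0 fell (6.46% and 6.67% of all genes), with a median response of 0.27. In H2O mice 0 rose and 2 fell, Mt1 and Tsc22d4 (3.95% and 2.73% of all genes), with a median of -0.04. The list was also higher in Abx than in H2O mice under saline, where 5 of its genes passed (0.563% of all genes were higher; median 0.31), and 18 passed under morphine (8.49%; median 0.51). The median difference of the list lay between 0.20 and 0.31 in all alternative fits.

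Fkbp5, a co-chaperone that restrains the glucocorticoid receptor and is itself induced by it, was at 140.4, 108, 163, 142 and 116 CPM in Abx_Morphine and at 69.3 to 106 CPM (median 74.9) in Abx_Saline libraries. It was at 55.9, 66.3, 55.2, 71.2 and 61.3 CPM in H2O_Morphine and at 59.4 to 68.2 CPM (median 65.6) in H2O_Saline libraries. All Abx_Morphine libraries were above all others, and the H2O groups overlapped. Fkbp5 rose in Abx mice (0.72 ± 0.10, adjusted p = 0.000308), its response in H2O mice was -0.06 ± 0.11 (adjusted p = 0.778), and the difference was 0.79 ± 0.15 (adjusted p = 0.0208). Without the 3 libraries highest in Slc17a7 3 of these 4 genes did not pass: the difference of Fkbp5 was 0.70 (adjusted p = 0.0601), that of Arrdc2 1.04 (adjusted p = 0.0559) and that of Map3k6 0.96 (adjusted p = 0.0559).

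Cdkn1a, which encodes the cell cycle inhibitor p21 and is induced by p53 as well as by glucocorticoids, was at 53.2, 38.8, 63.3, 45.1 and 33.9 CPM in Abx_Morphine and at 23.3 to 29.6 CPM (median 24.2) in Abx_Saline libraries. It was at 14.4, 22.8, 16.2, 20.7 and 17.6 CPM in H2O_Morphine and at 18.8 to 26.4 CPM (median 23.8) in H2O_Saline libraries. The Abx_Morphine libraries were again above the other 17. It rose in Abx mice (0.91 ± 0.13, adjusted p = 0.000334), its response in H2O mice was -0.35 ± 0.14 (adjusted p = 0.131), and the difference was 1.26 ± 0.19 (adjusted p = 0.00603). Wnt10b, Fabp7 and Cdkn1a were the 3 genes that passed in all 22 fits without a library and in all 13 other alternatives.

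The bases before an annotated start of Cdkn1a are shown because this gene answers to more than 1 factor. They are from RefSeq (GRCm38.p6, chr17:29090729-29090978, plus strand, 250 bases), and the capitals mark a pair of ACATGT cores of the p53 element, 4 bases apart, which read the same on both strands.
Cdkn1a: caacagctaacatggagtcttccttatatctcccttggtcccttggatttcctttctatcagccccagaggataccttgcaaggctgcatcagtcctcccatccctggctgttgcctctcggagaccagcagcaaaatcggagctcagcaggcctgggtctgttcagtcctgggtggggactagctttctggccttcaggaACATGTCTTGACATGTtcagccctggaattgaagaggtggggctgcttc
The match begins 49 bases before this start. Another RefSeq start of Cdkn1a, with the window chr17:29093519-29093818, had 0 such pairs. Such a pair was in 4 of 32851 windows (0.0122%) and, among the 46 called genes with a window, in Cdkn1a alone. The letters searched for are those of the Cdkn1a site, and other forms of the p53 element were not counted. These counts are therefore not a test. The half-site of the glucocorticoid receptor, TGTTCT or AGAACA, was in the windows of 8 of the 46 genes (17.4%), against 21.3% of all genes with a window. Pcolce2 held 2 of these, and the windows of Fkbp5, Cdkn1a, Arrdc2 and Map3k6 held 0. The full palindromic element, an AGAACA and a TGTTCT 3 bases apart, was in 0 of the 46 and in 3 of all windows (0.00913%). With so few in all windows, its absence from the 46 says nothing about these genes.

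Arrdc2, an arrestin-domain gene, averaged 30.2 ± 5.71 CPM in Abx_Morphine, 16.7 ± 3.89 in Abx_Saline, 10.8 ± 1.49 in H2O_Morphine and 12.4 ± 1.30 in H2O_Saline libraries (SD), a difference of 1.05 ± 0.21 (adjusted p = 0.0226). Map3k6, a kinase of the stress-activated MAP kinase cascades, averaged 7.56 ± 1.43 CPM in Abx_Morphine, 4.90 ± 0.773 in Abx_Saline, 3.11 ± 0.371 in H2O_Morphine and 3.94 ± 0.240 in H2O_Saline libraries (SD), a difference of 0.96 ± 0.19 (adjusted p = 0.0220). Other members with large positive values, picked after their values were seen, did not pass. Plin4, a lipid droplet protein, averaged 56.2 ± 7.40 CPM in Abx_Morphine, 17.1 ± 13.4 in Abx_Saline, 4.14 ± 1.09 in H2O_Morphine and 2.98 ± 1.21 in H2O_Saline libraries (SD), and its difference of 1.22 ± 0.57 had an adjusted p of 0.385. The differences of Hif3a (0.79 ± 0.32, adjusted p = 0.300), Sult1a1 (0.86 ± 0.23, adjusted p = 0.115) and Klf9 (0.45 ± 0.12, adjusted p = 0.107) did not pass either, although each rose with morphine in Abx mice. Plin4, Hif3a and Sult1a1 were also higher in Abx than in H2O mice under saline. Sgk1, a kinase gene induced through the receptor, had a difference of 0.38 ± 0.23 (adjusted p = 0.511).

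**Figure D4:**
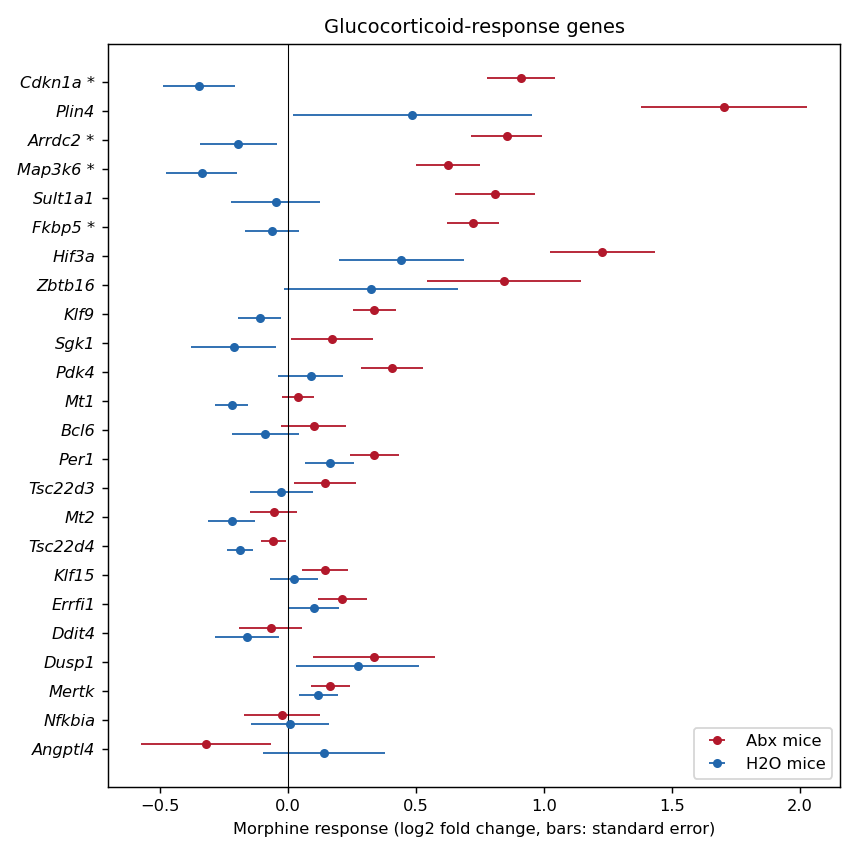
Morphine response (log2 fold change with its standard error) of the 24 glucocorticoid-response genes in Abx mice (red, upper point of each row) and H2O mice (blue, lower point). Asterisks mark the 4 genes whose difference passed the threshold, and the red point lies to the right of the blue one in 22 of the 24 rows.

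Genes of glia and of the vessel wall included the 1 negative difference that passed in every alternative. Fabp7, the brain lipid-binding protein of radial glia and astrocytes, was at 9.95, 9.92, 11.7, 9.71 and 13.1 CPM in Abx_Morphine and at 17.0 to 27.5 CPM (median 21.9) in Abx_Saline libraries. It was at 25.0, 31.0, 26.4, 34.7 and 26.8 CPM in H2O_Morphine and at 23.8 to 29.3 CPM (median 25.4) in H2O_Saline libraries. The Abx_Morphine libraries lay below all others. Fabp7 fell in Abx mice (-1.01 ± 0.12, adjusted p = 5.33e-05), its response in H2O mice was 0.14 ± 0.11 (adjusted p = 0.497), and the difference was -1.15 ± 0.16 (adjusted p = 0.00264). It was the 1 of 20 astrocyte genes to pass, and the median of the list was -0.10. In Abx mice 5 of the 20 fell with morphine (6.67% of all genes) and 0 rose (6.46%). In H2O mice 0 fell and 0 rose by edgeR (2.73% and 3.95%). In bulk tissue, fewer cells of a type and less RNA per cell cannot be told apart.

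Gpr17, a receptor of oligodendrocyte precursors about to differentiate, was at 54.9, 57.5, 59.7, 63.8 and 63.1 CPM in Abx_Morphine and at 71.2 to 87.8 CPM (median 78.7) in Abx_Saline libraries. It was at 81.9, 76.8, 79.8, 80.3 and 91.7 CPM in H2O_Morphine and at 72.1 to 92.5 CPM (median 81.1) in H2O_Saline libraries. The Abx_Morphine libraries lay below all others. It fell in Abx mice (-0.41 ± 0.07, adjusted p = 0.000437), and the difference was -0.42 ± 0.09 (adjusted p = 0.0367), which passed in 9 of the 22 fits without a library. It was 1 of 12 precursor genes to pass (median -0.18). In Abx mice 6 of the 12 fell (6.67% of all genes) and 1, Vcan, rose (6.46%). Olig2, a transcription factor of the lineage, fell in Abx mice (-0.42, adjusted p = 0.00252), and its difference was -0.30 ± 0.11 (adjusted p = 0.268).

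Cldn11, the claudin of myelin tight junctions, was the 1 myelin gene of 20 to pass. It averaged 177 ± 6.70 CPM in Abx_Morphine, 156 ± 14.2 in Abx_Saline, 168 ± 7.61 in H2O_Morphine and 193 ± 13.6 in H2O_Saline libraries (SD). It rose in Abx mice (0.18, adjusted p = 0.0385) and fell in H2O mice (-0.20, adjusted p = 0.0425), and the drinks differed under saline (-0.31, adjusted p = 0.00783). The difference of 0.38 ± 0.08 (adjusted p = 0.0367) passed in 9 of the 22 fits without a library. The median difference of the myelin list was 0.07. In Abx mice 3 of its 20 genes rose (6.46% of all genes) and 2 fell (6.67%), with a median response of -0.07. In H2O mice 0 rose and 3 fell (3.95% and 2.73%), with a median of -0.18. Mfsd2a, a lysophospholipid transporter of the blood-brain barrier, was at 45.1, 42.5, 47.1, 49.9 and 45.0 CPM in Abx_Morphine and at 28.8 to 38.5 CPM (median 32.4) in Abx_Saline libraries. It was at 24.4, 25.9, 27.5, 25.6 and 28.6 CPM in H2O_Morphine and at 25.6 to 36.9 CPM (median 29.9) in H2O_Saline libraries. All Abx_Morphine libraries were above all others, and the difference was 0.68 ± 0.13 (adjusted p = 0.0214). It was the 1 of 22 endothelial genes to pass (median 0.08). In Abx mice 7 of the 22 fell with morphine (6.67% of all genes) and 1, Mfsd2a, rose (6.46%). The median response of the list in Abx mice was -0.11. Without the 3 libraries highest in Slc17a7 the difference of Mfsd2a was 0.69 (adjusted p = 0.0559).

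Crybb1, a crystallin gene that microglia also transcribe, averaged 3.70 ± 0.583 CPM in Abx_Morphine, 6.40 ± 0.662 in Abx_Saline, 5.97 ± 0.604 in H2O_Morphine and 5.98 ± 0.452 in H2O_Saline libraries (SD), a difference of -0.79 ± 0.15 (adjusted p = 0.0221). None of the 20 listed microglial genes passed in the difference (edgeR, median -0.13), 7 had an unadjusted p under 0.05, and 2 passed with DESeq2 and 2 with limma voom. Of these, 15 fell with morphine in Abx mice (6.67% of all genes) and 4 in H2O mice (2.73%). Their summed level was 589 to 707 CPM in Abx_Morphine, 725 to 879 in Abx_Saline, 778 to 885 in H2O_Morphine and 908 to 983 in H2O_Saline libraries, so morphine and saline libraries did not overlap within either drink. Their part in the result for Crybb1 was not tested.

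**Figure D5:**
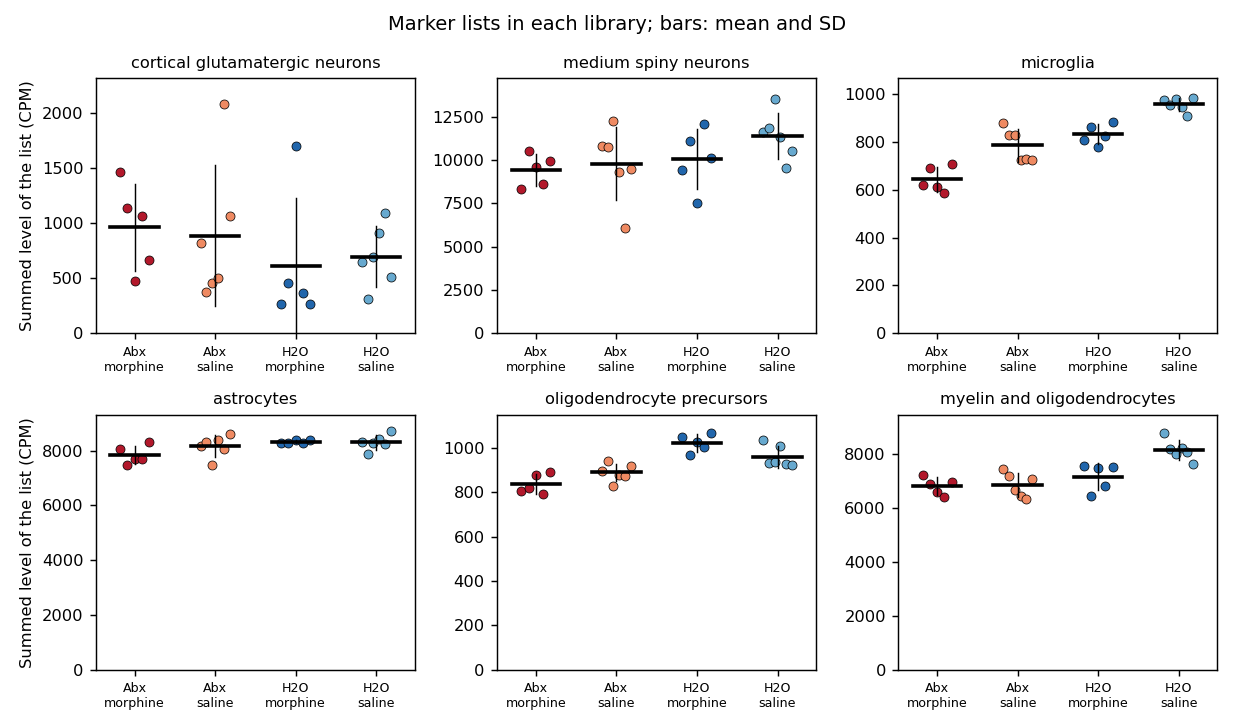
Summed CPM of 6 cell type marker lists in every library by group, from Abx_Morphine on the left to H2O_Saline on the right. The cortical list varied widely within groups (376 to 2077 CPM in Abx_Saline libraries), and the microglial sums were lowest in Abx_Morphine libraries.

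The summed level of the 15 cortical markers was 473 to 1462 CPM (median 1066) in Abx_Morphine, 376 to 2077 (657) in Abx_Saline, 264 to 1702 (368) in H2O_Morphine and 313 to 1092 (667) in H2O_Saline libraries. None of these 15 genes passed in the difference, nor any of 11 septal genes (median -0.42) or of 11 ependymal and choroid genes (-0.55). In each of the 3 lists edgeR gave 1 gene with an unadjusted p under 0.05, and DESeq2 and limma voom called 0. With the level of the cortical list as a covariate, all 59 genes passed and 162 passed in all. With cortical, septal and ependymal levels together, 28 of the 59 passed and 49 in all. Wnt10b, Fabp7, Cdkn1a, Fkbp5, Pcolce2, Mfsd2a and Sulf1 passed under both.

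Plxna3 and Igdcc4 had negative differences, with a rise in H2O mice. Plxna3, a plexin receptor for semaphorins, was at 22.3, 30.9, 30.0, 28.6 and 30.1 CPM in Abx_Morphine and at 28.8 to 36.7 CPM (median 33.8) in Abx_Saline libraries. It was at 47.4, 40.5, 42.0, 35.5 and 41.3 CPM in H2O_Morphine and at 25.2 to 33.2 CPM (median 30.2) in H2O_Saline libraries. The H2O_Morphine libraries lay above all H2O_Saline and all Abx_Morphine libraries. Its response in Abx mice was -0.24 ± 0.09 (adjusted p = 0.0769), it rose in H2O mice (0.48 ± 0.09, adjusted p = 0.00362), and the difference was -0.71 ± 0.12 (adjusted p = 0.0133). Igdcc4, a receptor of the immunoglobulin superfamily, fell in Abx mice (-0.28 ± 0.08, adjusted p = 0.0265) and rose in H2O mice (0.34 ± 0.08, adjusted p = 0.0141). It averaged 36.2 ± 1.86 CPM in Abx_Morphine, 43.9 ± 5.44 in Abx_Saline, 51.9 ± 1.40 in H2O_Morphine and 40.9 ± 5.12 in H2O_Saline libraries (SD), a difference of -0.62 ± 0.11 (adjusted p = 0.0164). Outside the rule for named genes, and chosen after their values were seen, are the plexin Plxnc1 (-0.66 ± 0.13, adjusted p = 0.0253) and the axonal adhesion gene L1cam (-0.35 ± 0.07, adjusted p = 0.0289).

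The other named genes with a negative difference fell in Abx mice, and their responses in H2O mice did not pass. They were Stxbp4 (-0.72), a syntaxin-binding protein, Pycrl (-0.57), an enzyme of proline synthesis, Tmco3 (-0.40), Mtss1l (-0.47), a membrane-bending protein, Mettl16 (-0.69), an RNA methyltransferase, Arhgef19 (-0.72) and Etv4 (-0.75), an ETS factor downstream of FGF signals. Pycrl averaged 12.3 ± 1.03 CPM in Abx_Morphine, 19.0 ± 0.828 in Abx_Saline, 19.1 ± 1.69 in H2O_Morphine and 19.6 ± 1.34 in H2O_Saline libraries (SD), with every Abx_Morphine library below all others. The other named genes with a positive difference were Dbndd2 (0.41 ± 0.07, adjusted p = 0.0101), a dysbindin-domain protein, Klc3 (1.12 ± 0.22, adjusted p = 0.0230), a kinesin light chain, and Arhgef39 (1.26 ± 0.28, adjusted p = 0.0483), which passed in 4 of the 22 fits without a library. Klc3 averaged 4.75 ± 0.548 CPM in Abx_Morphine, 3.31 ± 0.742 in Abx_Saline, 2.46 ± 0.529 in H2O_Morphine and 3.80 ± 0.556 in H2O_Saline libraries (SD).

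The remaining 33 genes lie outside the naming rule and had absolute differences of 0.22 to 0.79. In some the response passed in H2O mice only: Frmd4a, Plxnc1 and Nwd1 rose, and Smg9, 2010300C02Rik, Cyp4f13, Trnp1, Abhd12 and Pink1 fell. Responses that did not pass in Abx mice still added to the difference. That of Plxnc1 was -0.28 ± 0.10 in Abx (adjusted p = 0.0533) and 0.38 ± 0.09 in H2O mice. That of 2010300C02Rik was 0.19 ± 0.06 in Abx (adjusted p = 0.0502) and -0.24 ± 0.06 in H2O mice. Pink1, the kinase that marks damaged mitochondria, had a response of 0.09 ± 0.04 in Abx mice (adjusted p = 0.143) and of -0.16 ± 0.04 in H2O mice (adjusted p = 0.0192), a difference of 0.25 ± 0.06 (adjusted p = 0.0471). Slc7a11, the cystine and glutamate exchanger, fell in Abx mice (-0.51 ± 0.10, adjusted p = 0.00254), with a difference of -0.71 ± 0.14 (adjusted p = 0.0238). Dnmt1, the maintenance DNA methyltransferase, fell in Abx mice (-0.17, adjusted p = 0.0227) and rose in H2O mice (0.16, adjusted p = 0.0472). These genes too were chosen after their values were seen.

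Genes of the opioid system and of the principal neurons gave no passing difference. None of 10 opioid receptor and peptide genes passed (edgeR, median -0.12), with 2 at an unadjusted p under 0.05, and none of 21 medium spiny neuron genes did (median 0.09), with 1. DESeq2 and limma voom called 0 in both lists. Oprm1, the mu opioid receptor, was at 4.79 to 6.26 CPM (median 5.63) in Abx_Morphine, 1.62 to 7.48 (4.04) in Abx_Saline, 4.43 to 8.86 (8.38) in H2O_Morphine and 2.84 to 4.77 (3.47) in H2O_Saline libraries. Its response in Abx mice was 0.38 ± 0.24 (adjusted p = 0.311), it rose in H2O mice (1.04 ± 0.23, adjusted p = 0.0111), and the difference of -0.66 ± 0.33 did not pass (adjusted p = 0.422). Differences were 0.14 ± 0.21 for the dopamine receptor gene Drd1a, 0.09 ± 0.23 for Drd2, 0.24 ± 0.20 for Penk and -0.19 ± 0.23 for the dynorphin precursor Pdyn. In simulated data for this comparison, 51.5% of planted 1.5-fold and 77.5% of 2-fold differences were recovered, among 200 genes drawn at random. The simulation varied genes independently and held no shared differences in tissue content. These shares can be lower for genes with a wide spread, such as Oprm1, so a miss does not show equal responses.

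Of 36 lists, 34 had at least 3 tested members, and in 29 of these no gene passed in the difference by edgeR. DESeq2 called 1 gene of the GABA list, 1 of the circadian list and 2 of the microglial list among these 29. Genes of oxidative phosphorylation (72 tested) and cytosolic ribosomal proteins (80 tested) each had 0 passing genes by edgeR, DESeq2 and limma voom and a median of 0.05, with 6 and 1 genes at an unadjusted p under 0.05. In the first list 18 genes fell in Abx mice and 30 in H2O mice, and in the second 10 and 18, against 6.67% of all genes in Abx and 2.73% in H2O mice. Over 14452 genes the morphine response rose with transcript length (Spearman correlation 0.271 in Abx and 0.446 in H2O mice). It fell with GC content (-0.263 and -0.322). The part of these trends in the falls of the 2 lists was not tested. Among 19 circadian clock genes 6 rose in Abx mice (6.46% of all genes) and 1, Ciart, in H2O mice (3.95%). Their median difference was 0.13, with 0 past the threshold by edgeR, 3 at an unadjusted p under 0.05 and 1 past it by DESeq2, and Cry1 had a difference of 0.47 ± 0.13 (adjusted p = 0.114). The cold-inducible genes Rbm3 (0.39, adjusted p = 0.00685) and Cirbp (0.45, adjusted p = 0.00692) rose in Abx mice, with differences of 0.22 ± 0.13 (adjusted p = 0.501) and 0.45 ± 0.15 (adjusted p = 0.187).

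The series also holds 11 libraries of germ-free mice, 5 with morphine and 6 with saline. In an edgeR fit over all 33 libraries the morphine response of Wnt10b in germ-free mice was -0.62 ± 0.36 (adjusted p = 0.769), and its response in Abx mice exceeded that by 2.94 ± 0.43 (adjusted p = 0.00149). The Abx minus germ-free value was 1.05 ± 0.19 for Cdkn1a (adjusted p = 0.00345) and -0.92 ± 0.17 for Fabp7 (adjusted p = 0.00345). It passed in 24 of the 59 genes (2.14% of all genes). Those that did not pass included Gpr17 (-0.14 ± 0.12, adjusted p = 0.587), Sulf1 (-0.36 ± 0.25, adjusted p = 0.470) and Plxna3 (-0.44 ± 0.18, adjusted p = 0.193). These values share the Abx libraries with the comparison above, so the 24 genes are not separate evidence for it. Wnt10b was at 0.418, 1.03, 0.142, 0.468 and 1.54 CPM in germ-free morphine and at 0.451 to 1.65 CPM in germ-free saline libraries, which overlapped. The responses of Abx and germ-free mice differed in 313 of 14602 genes (2.14%). In the same fit the germ-free and H2O responses differed in 0 genes (edgeR, 2327 at an unadjusted p under 0.05), and the germ-free response itself passed in 1 gene (0.00685%). The H2O response passed in 0 genes of this fit, against 972 in the fit of 22 libraries. Germ-free libraries held 4.87 to 8.13 M gene reads, apart from saline replicate 1 with 15.3 M, against 9.36 to 15.3 M in the 22. Few passing genes in this fit do not show an absent response, and the part of depth in these counts was not tested. With the germ-free libraries in the fit, the difference between Abx and H2O responses passed in 16 genes, all among the 59.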

How the data were processed

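Polyadenylated RNA of the mouse nucleus accumbens was sequenced. Per the submitters' processing notes the authors used FastQC, STAR 2.4.0 and edgeR, and the deposited table holds raw read counts per gene. The build, annotation and strand are not given in the sources. A second deposited table holds normalised signal for 10871 genes, each value a fixed multiple of its count within a library, per the values, and was used only to restore 19 of 27 gene names that had turned into dates. The other 8 were left out. Between 20.6 and 26.4% of reads were tallied to no gene and were dropped.

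Genes were filtered with filterByExpr (minimum count 10), scaled by TMM and tested with edgeR 4.0.16 (R 4.3.3) in a quasi-likelihood model of 4 group means over 22 libraries (18 residual degrees of freedom), with Benjamini-Hochberg adjustment at 0.05. CPM uses TMM library sizes, and intervals are standard errors. The test was checked on simulated data. Members and gene lists were chosen with earlier results of these data known. Named genes are, among called genes averaging 2 CPM or more in a group, the 8 per direction with the smallest p and the 8 with the largest change (unnamed gene models left out), the called members of each list or, if none, those with the smallest p, and a few genes always named. Alternatives were DESeq2 1.42.0, limma 3.58.1, sva 3.50.0, other scalings and filters, marker covariates, all 33 libraries, the replicate block and leaving out libraries.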

Additional observations from a re-analysis of the deposited data

Results flagged for a closer look

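In 27 of 364 groups of values, 1 library's level lay far from the others of its group (a gap above Dixon's 95% critical value); chance alone flags about 1 in 20 groups. In Abx_Morphine libraries these were Plxna3 at 22.3 CPM in replicate 1 (others 28.6 to 30.9), Cd248 at 3.03 CPM in replicate 5 (others 1.94 to 2.08), Grin3a at 42.6 CPM in replicate 2 (others 54.5 to 57.2) and Oprk1 at 41.6 CPM in replicate 4 (others 50.1 to 52.6). In Abx_Saline libraries these were Cdkn1a at 29.6 CPM in replicate 1 (others 23.3 to 24.7), Cry1 at 50.1 CPM in replicate 4 (others 35.7 to 40.0), Gabrb1 at 23.4 CPM in replicate 6 (others 16.6 to 17.7), Ier5 at 43.3 CPM in replicate 4 (others 54.6 to 62.5), Kcnj4 at 214 CPM in replicate 4 (others 259 to 289), Hdac8 at 11.5 CPM in replicate 3 (others 13.6 to 14.9), Foxp2 at 36.4 CPM in replicate 5 (others 68.5 to 77.7), Pdyn at 180.4 CPM in replicate 5 (others 313 to 424), Drd1a at 138 CPM in replicate 5 (others 239 to 279.6) and Drd2 at 68.5 CPM in replicate 5 (others 119 to 158). In H2O_Morphine libraries these were Ndufs3 at 97.7 CPM in replicate 4 (others 101 to 102), Htr4 at 3.97 CPM in replicate 4 (others 13.8 to 17.9), Oprm1 at 4.43 CPM in replicate 4 (others 8.00 to 8.86), Penk at 838 CPM in replicate 4 (others 1268 to 1367), Rorb at 31.3 CPM in replicate 4 (others 15.4 to 16.7), Pdyn at 228 CPM in replicate 4 (others 392 to 446) and Fos at 5.55 CPM in replicate 6 (others 28.1 to 45.9). In H2O_Saline libraries these were Etv4 at 8.43 CPM in replicate 6 (others 10.1 to 11.1), Scn2b at 527 CPM in replicate 5 (others 452 to 476), Col3a1 at 1.70 CPM in replicate 5 (others 2.62 to 2.93), Htr2a at 9.13 CPM in replicate 4 (others 16.9 to 21.9), Syt2 at 23.3 CPM in replicate 4 (others 35.8 to 43.6) and Slc17a7 at 8.46 CPM in replicate 4 (others 163 to 594).

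The named genes whose morphine response differed between Abx and H2O mice past the threshold of the edgeR interaction test are listed here with their log2 difference, Abx minus H2O. Positive differences were those of Wnt10b (2.47), Cdkn1a (1.26), Dbndd2 (0.41), Pcolce2 (1.29), Fkbp5 (0.79), Mfsd2a (0.68), Map3k6 (0.96), Arrdc2 (1.05), Klc3 (1.12), Cldn11 (0.38), Tmprss6 (1.97) and Arhgef39 (1.26). Negative differences were those of Fabp7 (-1.15), Stxbp4 (-0.72), Pycrl (-0.57), Plxna3 (-0.71), Tmco3 (-0.40), Mtss1l (-0.47), Mettl16 (-0.69), Igdcc4 (-0.62), Sulf1 (-0.82), Crybb1 (-0.79), Arhgef19 (-0.72), Glt8d2 (-1.30), Gpr17 (-0.42) and Etv4 (-0.75).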

How the results depend on the processing

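The number of genes whose morphine response differed was 59 as reported. It was 185 with DESeq2 (57 of them among the 59), 109 with limma voom and quality weights (56), 162 with a cortical marker covariate (59), 200 with 1 surrogate variable (59) and 16 with all 33 libraries in the fit (16). It was 20 without the 3 libraries highest in Slc17a7 (14), an alternative chosen after seeing the data. Leaving out 1 library gave 28 to 88 genes, and the libraries whose loss moved the count by over 1.5 times were Abx_Morphine 1 (35) and 3 (31), Abx_Saline 1 (37), H2O_Morphine 2 (28) and H2O_Saline 3 (35), 5 (37) and 6 (38). Other scalings and filters, the 3 marker covariates and a length and GC offset gave 41 to 86. Genes changed by morphine in Abx mice numbered 1911, and were 784 with all 33 libraries, 1045 without the 3 libraries highest in Slc17a7, and 1081 to 2051 with 1 library left out (lowest without Abx_Saline 1, then 1117 without Abx_Morphine 1 and 1121 without Abx_Morphine 3). Genes changed in H2O mice numbered 972, and were 0 with all 33 libraries (edgeR; 2223 at an unadjusted p under 0.05, and 1327 by DESeq2 on 22 libraries), 1526 with the cortical covariate, 331 with 3 marker covariates, 1769 with 1 surrogate variable, 114 with the length and GC offset, and 477 to 1104 with 1 library left out (477 without H2O_Morphine 2, 570 without H2O_Morphine 6, 564 without H2O_Saline 8 and 634 without H2O_Saline 4). The cause of these shifts was not tested. With the replicate block the difference passed in 6 genes and the H2O response in 242. On average same-numbered libraries did not deviate together (25 pairs, mean correlation 0.0024, range -0.48 to 0.35). These correlations cannot exclude a shared batch, and the labels do not say what the numbers mean. None of the 59 differences changed sign, though 8 of 65 genes that did not pass did so in some alternative, Drd1a, Drd2, Pdyn and Fos among them; 25 of the 59 passed in all 22 fits without a library, and 18 passed in fewer than 11.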
